A study of Homo sapiens with 48 samples.

Results

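The genes described here are SOX17, GATA6, FOXA1 and HHEX, 4 transcription factors that mark endoderm. Their members were taken as every probe of the deposited counts that carries 1 of these 4 gene symbols, which gave 10 of the 1113 probes on the panel and 4 of its 452 genes. SOX17, GATA6 and HHEX had 3 probes each, and FOXA1 had 1. RASL-Seq does not read whole transcripts: paired probes that sit side by side on a captured RNA are ligated, and the ligated products are sequenced and counted.

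All 48 libraries came from 1 established line of human embryonic stem cells, WA09 (H9), labelled as of normal genotype, so no group differs in genotype. The hESC group (4 libraries) was untreated. The ectoderm group (4) was kept for 6 days in E6 medium with 2 receptor inhibitors, LDN-193189 (100 nM, against BMP receptors) and A83-01 (2 µM, against TGF-beta, Activin and Nodal receptors). The mesoderm group (4) was grown for 5 days in STEMdiff Mesoderm Induction Medium, and the endoderm group (4) for 5 days with the STEMdiff Definitive Endoderm Kit. Both kits are commercial and their composition is not labelled. Embryoid bodies (EBs), free-floating aggregates in which stem cells differentiate, were started from 20000 cells per well in E6 medium and kept for 7 days. In the first 24 hours they received CEPT, a cytoprotective cocktail (CEPT EB, 16 libraries), or Y-27632, a kinase inhibitor (Y27 EB, 16 libraries). No EB library was cultured without a compound. The labels do not say whether libraries of a group came from separate cultures or wells, so p-values measure the spread between these libraries, which may be technical.

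Definitive endoderm is the germ layer that later forms the gut, liver, pancreas and lungs, and it arises from primitive streak cells under Nodal signalling. SOX17 is an HMG-box factor that specifies endoderm and is also used by endothelium. GATA6 is a zinc-finger factor of definitive and extraembryonic endoderm and of heart mesoderm. FOXA1 is a forkhead pioneer factor that opens chromatin at gut, liver and lung genes and is also used in the floor plate of the neural tube. HHEX is a homeodomain repressor of anterior endoderm, liver and blood vessel precursors. In bulk libraries, fewer cells of a type and less RNA per cell cannot be told apart.

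Because the 4 genes were all high in directed endoderm, the DNA just upstream of their starts is shown for 3 of them, as RefSeq gives it on GRCh38.p14. Promoter entries were found for 3 of the 4 genes. Each stretch is the part of the 250 bases before the RefSeq start that no GENCODE exon of the same strand covers, and capitals mark matches to the core motifs searched. The HHEX stretch is chr10:92689705-92689950, plus strand. The FOXA1 stretch is chr14:37595349-37595499, minus strand, and it lies between exons of the longer GENCODE model of that gene. The GATA6 stretch is chr18:22169339-22169442, plus strand.
HHEX: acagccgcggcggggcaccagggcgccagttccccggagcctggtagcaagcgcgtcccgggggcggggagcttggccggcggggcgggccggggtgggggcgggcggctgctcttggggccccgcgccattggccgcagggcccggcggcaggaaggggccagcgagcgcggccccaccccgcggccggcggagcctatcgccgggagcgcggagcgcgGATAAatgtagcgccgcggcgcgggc
FOXA1: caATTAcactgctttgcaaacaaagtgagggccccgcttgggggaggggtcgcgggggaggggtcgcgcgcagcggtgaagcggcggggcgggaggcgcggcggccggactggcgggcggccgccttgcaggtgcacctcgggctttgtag
GATA6: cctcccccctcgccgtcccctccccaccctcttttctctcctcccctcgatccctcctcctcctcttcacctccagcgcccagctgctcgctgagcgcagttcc
The cores were GATAA (GATA factors), TGTTTA (forkhead), ACAAT (SOX) and TAAT (homeodomain), on both strands, and none of these 4 words contains another. The HHEX stretch holds 1 GATAA, starting 30 bases before the RefSeq start. FOXA1 holds 1 TAAT core, read on the other strand as ATTA, whose first printed base lies 248 bases before the start. In GATA6, the 250 bases hold 1 TGTTTA match, starting 111 bases before the start, in the part not printed. Over all 35116 promoter entries, 20.4% held GATAA in the same 250 bases, 11% TGTTTA, 24.6% ACAAT and 47.4% TAAT. These matches describe letters and were not tested for binding.

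The probes lie in these transcripts, by the positions in their names and by GENCODE release 29 (GRCh38, the same assembly as the hg38 build in the submitters' processing notes). SOX17 (ENSG00000164736.5, chromosome 8, 54457935 to 54460888, plus strand) was read by probe 692 at position 1651, probe 693 at 1903 and probe 691 at 2198 of NM_022454, all in the 3′ UTR of exon 2, the last. GATA6 (ENSG00000141448.8, chromosome 18, 22169443 to 22202528, plus strand) was read by probe 305 at 1942, probe 306 at 3099 and probe 307 at 3555 of NM_005257, all in exon 7, the last. Probe 305 falls in the coding part there and the other two in the 3′ UTR. FOXA1 (ENSG00000129514.5, chromosome 14, 37589984 to 37596059, minus strand) was read by probe 1113 at 2235 of NM_004496, in the 3′ UTR of exon 2, the last. HHEX (ENSG00000152804.10, chromosome 10, 92689951 to 92695646, plus strand) was read by probe 1119 at 605 of NM_002729, in the coding part of exon 3, and by probes 1120 at 1062 and 1121 at 1503, in the 3′ UTR of exon 4, the last. The transcript versions behind these positions are not given in the sources used here, so the side of a coding boundary, most of all for GATA6 probe 305, holds for the GENCODE models only.

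Library totals ranged from 379810 to 5577868 reads (median 3583316). The 16 control libraries held 1773969 to 4227384, and Y27 EB replicate 15, at 379810, was the single library under 0.25 of the median. In directed endoderm, LEFTY1 and LEFTY2, secreted Nodal inhibitors, took 28.7% to 32.5% of all reads, against at most 0.0278% in any other group. Levels are given as CPM, the usual read counts scaled to a common library size, after TMM factors (trimmed mean of M values), which limits the pull of such genes. Probes bind with unequal efficiency and CPM carries no correction for length, so levels are compared between groups for 1 gene or probe and never between genes.

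SOX17 separated directed endoderm from every other control library. The summed CPM of its 3 probes was 2849, 2472, 2254 and 3343 in the 4 endoderm libraries. In hESC all 4 libraries held 0 SOX17 reads, which allows up to 1.25 to 1.95 CPM per library (3 reads), for counting error only. Ectoderm libraries held 0, 0, 2 and 11 reads, and mesoderm libraries 0, 0, 3 and 0. Endoderm and the other control groups did not overlap, and the ectoderm reads came almost wholly from replicate 4. Against hESC, probe 692 was at least 1320-fold higher in endoderm, probe 691 at least 301-fold and probe 693 at least 72.3-fold, with 3 reads per hESC library as the floor. The edgeR quasi-likelihood test with Benjamini-Hochberg adjustment gave adjusted p-values of 1.69e-12, 2.59e-13 and 9.43e-11.

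GATA6 had 2 control groups with clear signal, endoderm and, far lower, mesoderm. Its summed CPM was 4193, 4040, 4334 and 4389 in endoderm. In mesoderm it was 95.9, 116, 124 and 101, which is 2.58% of the endoderm mean. In ectoderm it was 1.93, 2.40, 1.86 and 9.65, from 5, 7, 4 and 30 reads. In hESC a single read was found over the 4 libraries. The 4 groups formed separate steps without overlap, endoderm above mesoderm, ectoderm and hESC in that order, although the lowest steps rest on few reads. Between endoderm and mesoderm the log2 fold change was 5.42 ± 0.18 (SE, n = 4 and 4) for probe 305, 5.53 ± 0.23 for probe 306 and 5.15 ± 0.47 for probe 307, each past the edgeR threshold of 0.05 after adjustment. Mesoderm was above hESC by at least 43.6-fold for probe 305 (adjusted p = 4.7e-12) and at least 23.4-fold for probe 306 (adjusted p = 3.12e-08). Probe 307 passed as well (adjusted p = 0.0243) with 9, 1, 2 and 1 reads in the mesoderm libraries, too few for a fold above the floor, and its adjusted p was 0.0725 in a single fit of all 48 libraries.

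FOXA1 differed from SOX17 and GATA6 in being well above the floor in undifferentiated cells. Probe 1113 stood at 76.3, 77.3, 78.8 and 59.7 CPM in hESC. In endoderm it was at 132, 111, 116 and 147 CPM, and in ectoderm at 24.0, 29.5, 22.8 and 23.8 CPM. Mesoderm libraries held 8, 7, 3 and 16 reads, or 3.02, 2.38, 1.42 and 5.17 CPM. No 2 control groups overlapped, so the order was endoderm, hESC, ectoderm, mesoderm. Endoderm was 1.65-fold above hESC (log2 fold change 0.72 ± 0.16, SE, adjusted p = 0.000391, edgeR). It is the smallest of the 10 steps in that comparison and its size varied with the scaling: the log2 fold change was 0.37 (adjusted p = 0.0373) with upper-quartile factors and 0.88 with DESeq2, and the call was lost in a single fit of all 48 libraries (0.79, adjusted p = 0.508). Against hESC, FOXA1 fell by 1.46 on the log2 scale in ectoderm (adjusted p = 2.14e-07, edgeR) and by 4.76 in mesoderm (adjusted p = 3.6e-13). The ectoderm call was also lost in the fit of all 48 libraries (adjusted p = 0.172).

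HHEX was likewise present before differentiation and moved both ways. Its summed CPM was 377, 405, 391 and 365 in hESC and 3284, 3117, 2760 and 3731 in endoderm. Ectoderm libraries stood at 3.09, 5.82, 2.79 and 6.11 CPM, and mesoderm libraries at 10.6, 9.86, 4.27 and 5.82. The hESC and endoderm values were far apart from each other and from the overlapping ectoderm and mesoderm values. From hESC to endoderm the 3 probes rose 7.17-fold (probe 1119), 8.07-fold (1120) and 8.58-fold (1121), with log2 fold changes of 2.84 ± 0.15, 3.01 ± 0.14 and 3.10 ± 0.12 (SE, n = 4 and 4) and adjusted p-values of at most 1.31e-12 by edgeR. From hESC to ectoderm they were 79.5-, 99.0- and 60.3-fold lower, and from hESC to mesoderm 48.4-, 75.5- and 51.5-fold lower, all called by edgeR after adjustment. The mean ectoderm level was 1.16% of the hESC mean and the mean mesoderm level 1.98%.

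**Figure D1:**
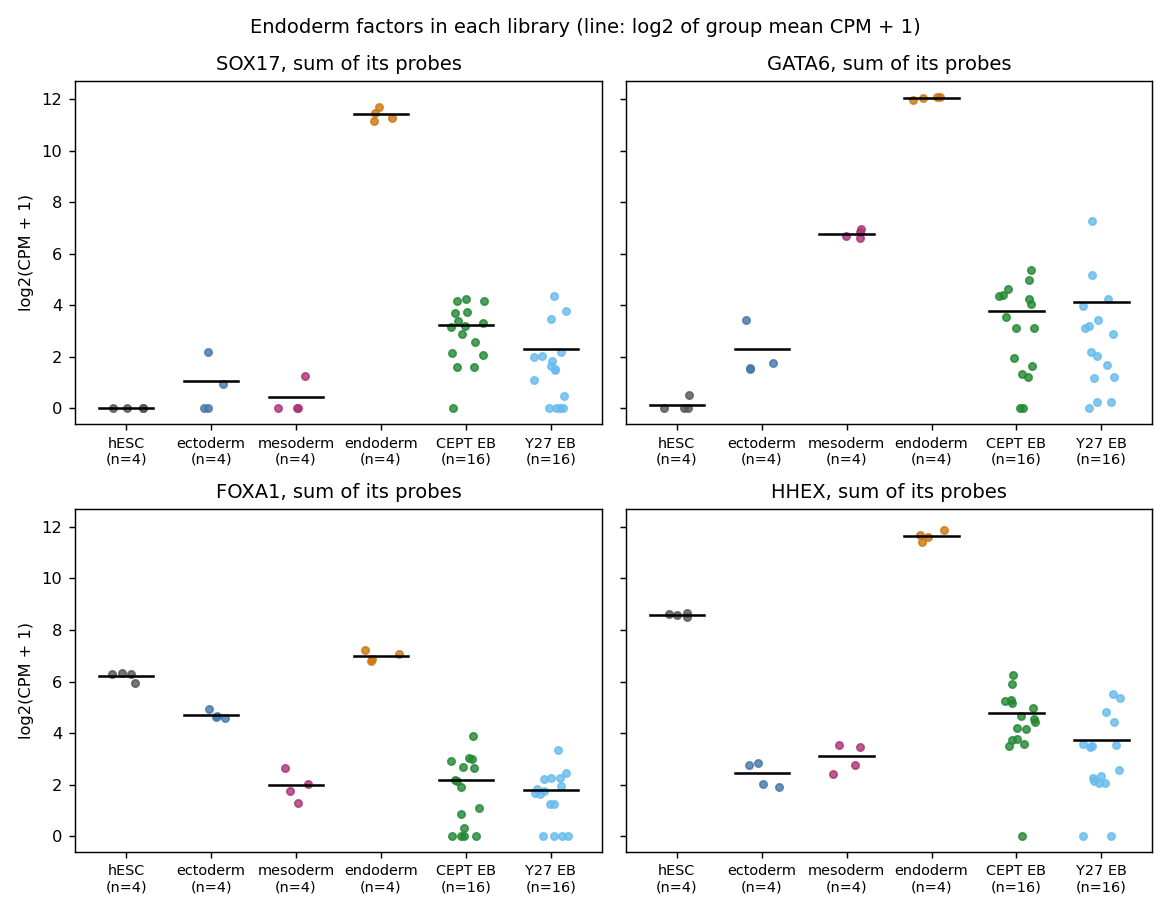
Levels of SOX17, GATA6, FOXA1 and HHEX in the 48 libraries, as log2(CPM + 1) of the summed probes of each gene on the y axis and the 6 groups on the x axis, where points are libraries and lines are group means. Endoderm is the highest group for all 4 genes, while FOXA1 and HHEX also have hESC means of 73.0 and 384 CPM and SOX17 has 0 reads in all 4 hESC libraries.

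Counted over probes, all 10 passed the edgeR threshold as higher in endoderm than in hESC. Over the panel, 78.2% of the 903 probes tested were called in that comparison and 38.4% were called higher in endoderm, so a call by itself is common and the shared direction of the 10 is read against 38.4%. The 3 SOX17 probes and GATA6 probe 307 had at most 9 reads in any control library outside endoderm. They passed the count filter through endoderm only. For them a call as higher in endoderm was largely fixed in advance, here and against ectoderm and mesoderm. None of the 10 overlapped between endoderm and hESC, beside 73.9% of all probes. All 10 were also higher in endoderm than in ectoderm (background 79.7% called, 39.9% higher, 76.5% not overlapping) and than in mesoderm (76.2% called, 39.0% higher, 70.7% not overlapping), with no overlap for any of the 10 in either. The 3 comparisons share the endoderm libraries. The median log2 fold change of the 10 probes against hESC was 10.37, beside 0 over all probes tested, but for the 6 probes of SOX17 and GATA6 it is a fitted value against hESC counts at the floor and is no measured size. Ectoderm against hESC gave 6 called probes of 10, with GATA6 305 and 306 higher and FOXA1 and the 3 HHEX probes lower (background 81.7% called, 43.2% higher and 38.5% lower), and 5 of 10 did not overlap (78.2% of all probes). GATA6 probe 305 there had 2 to 17 reads per ectoderm library (adjusted p = 0.000521), and replicate 4 held the most. Probe 306 had 0 to 13 reads (adjusted p = 0.00571) and more than 3 in 1 library only, too few for a fold above the floor. In the single fit of all 48 libraries, neither GATA6 probe was called there (adjusted p = 0.209 and 0.241). Mesoderm against hESC gave 7 of 10, the 3 GATA6 probes higher and FOXA1 and HHEX lower (background 77.5% called, 34.0% higher and 43.5% lower), and the same 7 did not overlap (70.8% of all probes). SOX17 was not called in either: its probe 692 had an adjusted p of 0.0622 in ectoderm, 0.0277 without ectoderm replicate 1 and 0.0225 without replicate 2, from at most 7 reads in a library.

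Probes of 1 gene share a transcript and are not replicates, yet they read it with different yield. In endoderm, SOX17 probe 692 took 77.9% of the gene's mean CPM, probe 691 17.8% and probe 693 4.27%. GATA6 probes 305, 306 and 307 took 62.4%, 36.7% and 0.947%. In mesoderm the 3 GATA6 probes took 64.3%, 34.5% and 1.15%, close to the endoderm shares although the level there was 2.58% of the endoderm mean. HHEX was read evenly, with 26.1%, 36.9% and 36.9% in endoderm and 29.2%, 36.4% and 34.4% in hESC for probes 1119, 1120 and 1121. These shares are descriptions, and differences between groups in them were not tested.

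**Figure D2:**
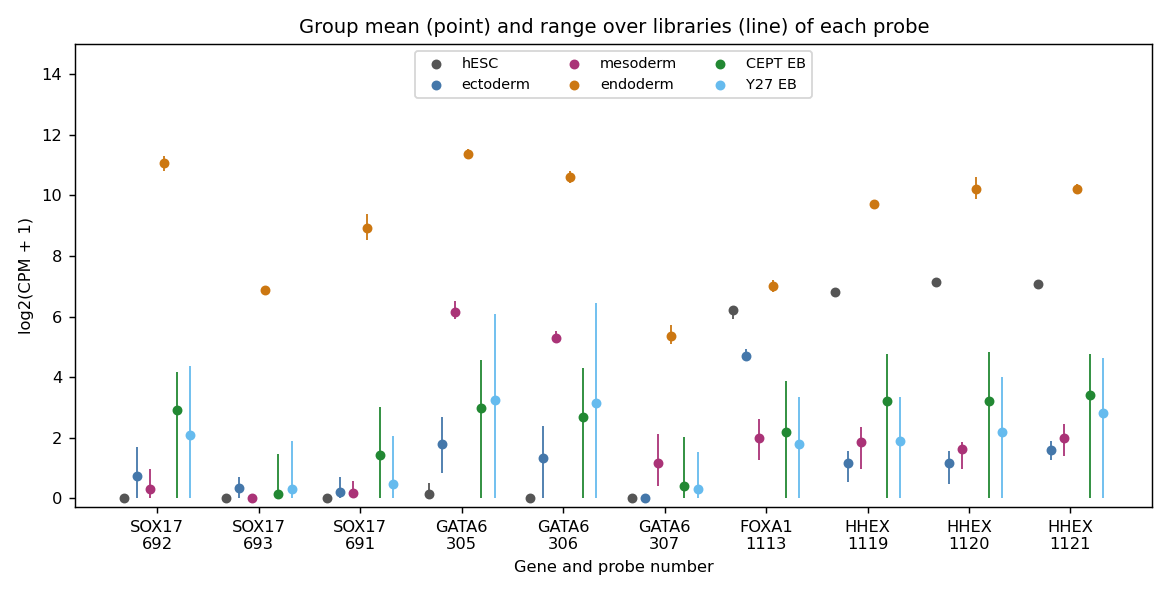
Level of each of the 10 probes, by gene and probe number on the x axis, as log2(CPM + 1) on the y axis, where a point is a group mean and the line runs from the lowest to the highest library of the group. Each probe has its highest mean in endoderm, and the long EB lines reach 0 for every probe because at least 1 library of each arm held 0 reads of it.

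After 7 days as EBs, FOXA1 and HHEX lay below undifferentiated hESC in every library, while SOX17 and GATA6 lay slightly above the floor in most. In CEPT EB against hESC, 7 of the 10 probes could be tested and all 7 were called by edgeR, 3 higher and 4 lower (background 73.4% called, 42.2% higher and 31.2% lower). FOXA1 fell by 4.11 ± 0.74 on the log2 scale (SE, n = 16 and 4, adjusted p = 3.09e-05), with a lowest, median and highest CPM of 0, 3.12 and 13.7 against at least 59.7 in hESC. The 3 HHEX probes had log2 fold changes of -3.50 ± 0.54, -3.83 ± 0.62 and -3.53 ± 0.53 (SE, adjusted p at most 8.55e-06). No CEPT EB library reached the hESC range for these 4 probes (57.3% of all probes tested did not overlap). SOX17 probe 692 was at least 4.04-fold higher than the 3-read floor of hESC (adjusted p = 0.000425), GATA6 probe 305 at least 4.30-fold (0.00589) and probe 306 at least 3.34-fold (0.00657). These 3 overlapped with hESC, since at least 1 CEPT EB library held 0 reads of each.

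The Y27 EB arm gave the same 7 calls against the same hESC libraries (background 74.1% called, 41.5% higher and 32.6% lower). FOXA1 had a log2 fold change of -4.65 ± 0.69 (SE), and HHEX probes 1119, 1120 and 1121 had -5.24 ± 0.81, -5.28 ± 0.72 and -4.41 ± 0.82 (adjusted p at most 5.22e-05, edgeR). These 4 probes did not overlap with hESC, beside 56.2% of all probes tested. SOX17 probe 692 (at least 2.03-fold, adjusted p = 0.0296), GATA6 probe 305 (at least 5.21-fold, 0.0219) and probe 306 (at least 4.90-fold, 0.0363) passed narrowly. Leaving out hESC replicate 1, 3 or 4 took these 3 calls away (adjusted p from 0.0525 to 0.0672), and leaving out hESC replicate 2 took away those of probes 306 (0.0718) and 692 (0.0593). The 2 GATA6 bounds lean on the shallow Y27 EB replicate 15, at 66.6 CPM (probe 305) and 85.9 CPM (probe 306). Without that library the summed GATA6 mean of Y27 EB was 7.49 in place of 16.5 CPM, so both bounds would be smaller. Both arms share the hESC libraries, so their agreement is not a second observation.

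Both arms stayed far below directed endoderm. All 10 probes were higher in endoderm than in CEPT EB (background 78.9% called, 33.4% higher in endoderm) and than in Y27 EB (77.5% called, 35.1% higher), with 4 endoderm libraries shared by the 2 comparisons. SOX17 probes 691 and 693 and GATA6 probe 307 failed the count filter in each arm against hESC. They passed it here with the endoderm libraries, so their direction was largely fixed in advance. As a share of the endoderm mean, CEPT EB stood at 0.305% for SOX17, 0.298% for GATA6, 2.81% for FOXA1 and 0.814% for HHEX. Y27 EB stood at 0.143%, 0.390%, 1.96% and 0.382%. The GATA6 share of Y27 EB rests on 1 library: the mean was 16.5 ± 37.4 CPM (SD, n = 16) and 7.49 ± 9.49 (n = 15) without replicate 15, the shallow library, where 71 reads gave 153 CPM. That value lies above the mesoderm range, and the 15 other Y27 EB libraries lie below it.

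Placed in order, the 6 groups separated only in part. For SOX17, directed endoderm stood alone and the ranges of CEPT EB (0 to 18.0 CPM), Y27 EB (0 to 19.8), ectoderm (0 to 3.54), mesoderm (0 to 1.42) and hESC overlapped at 0. For GATA6, endoderm and mesoderm led, and the EB arms (median CPM of 9.18 for CEPT EB and 4.91 for Y27 EB) overlapped with ectoderm. For FOXA1, endoderm, hESC and ectoderm were each above every EB library, and mesoderm lay within the EB ranges. For HHEX, endoderm and hESC were above every EB library, and the EB ranges (0 to 74.6 CPM for CEPT EB, 0 to 45.1 for Y27 EB, the latter from 21 reads of the shallow replicate 15) held all ectoderm and mesoderm values.

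The EB libraries differed widely within an arm. SOX17 had more than 3 reads in 15 of 16 CEPT EB libraries and in 10 of 16 Y27 EB libraries, GATA6 in 14 and 13, FOXA1 in 10 and 11, and HHEX in 15 and 14. All 4 genes were above 3 reads in 9 CEPT EB and 6 Y27 EB libraries, and the median library had 7 and 5 of the 10 probes above 3 reads. These counts move with depth and their difference between arms was not tested. CEPT EB replicate 13 held 0 reads in all 10 probes at a total of 1814266 reads, which allows up to 1.43 CPM per probe (3 reads, counting error only), while its summed pluripotency genes stood at 5910 CPM, within the CEPT EB range of 5130 to 7210. Next lowest in that arm was replicate 4, with 56 reads over the 10 probes. In Y27 EB the lowest were replicate 9, with 19 reads, all of GATA6, and replicate 5, with 26 reads of SOX17 and GATA6. The highest sums over the 10 probes were 115 and 110 CPM in CEPT EB replicates 15 and 7, and 202 and 86.9 CPM in Y27 EB replicates 15 and 11. Replicates 7 and 15 of CEPT EB led through HHEX (74.6 and 59.4 CPM), and replicate 15 of Y27 EB through GATA6.

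**Figure D3:**
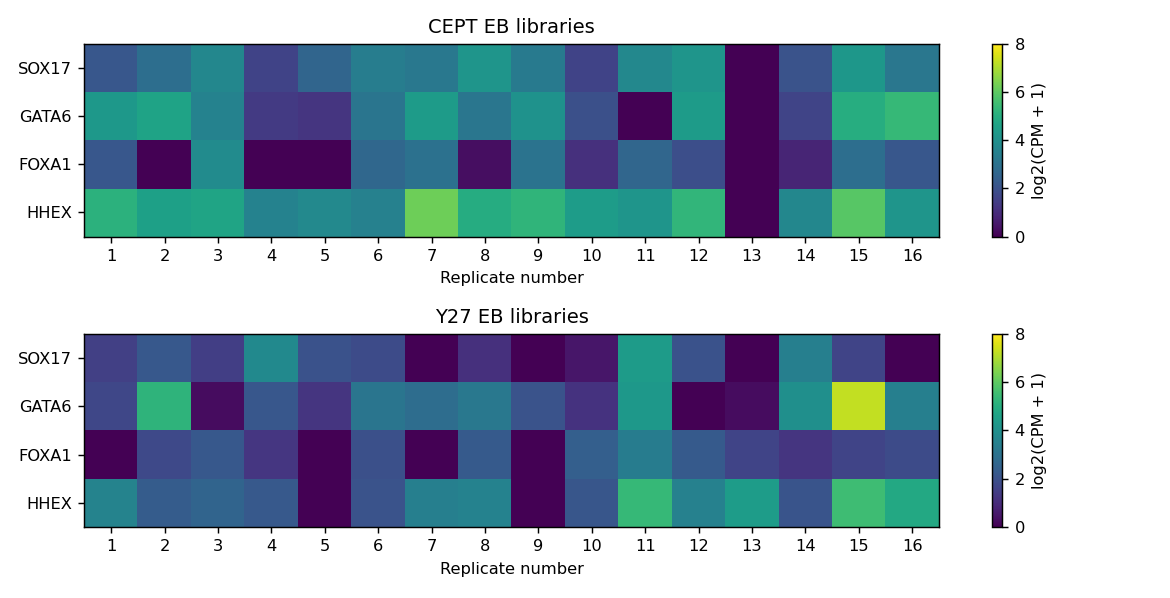
Levels of the 4 genes in each EB library, with replicate numbers on the x axis, genes on the y axis and colour for log2(CPM + 1) of the summed probes, CEPT EB above and Y27 EB below. The column of CEPT EB replicate 13 is dark for all 4 genes, and the brightest cell is GATA6 in Y27 EB replicate 15 at 153 CPM from 71 reads.

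Between the compound arms no probe of these genes passed the threshold. Of the 10 probes, 6 had enough reads to be tested, and edgeR called 0 after adjustment, as did DESeq2, beside 23.6% of all 867 probes tested. At an unadjusted p under 0.05, 2 of the 6 passed, beside 34.3% of all probes. Both were HHEX. HHEX probe 1119 was at a lowest, median and highest CPM of 0, 5.99 and 26.3 in CEPT EB and 0, 1.75 and 9.20 in Y27 EB, with 14 of 16 CEPT EB libraries above the Y27 EB median. Its log2 fold change was 1.66 ± 0.68 (SE, n = 16 and 16, 95% interval 0.33 to 2.99, adjusted p = 0.0718). It passed when CEPT EB replicate 13 (adjusted p = 0.0489) or Y27 EB replicate 11 (0.0422) was left out, and its adjusted p ranged from 0.0422 to 0.137 over the 32 fits without 1 library. Under the other scalings, filters and DESeq2 it ranged from 0.0534 to 0.103. HHEX probe 1120 was 1.33 ± 0.65 higher in CEPT EB (interval 0.06 to 2.61, adjusted p = 0.141) and probe 1121 0.78 ± 0.65 (interval -0.50 to 2.05, adjusted p = 0.452). All 3 HHEX estimates were above 0, and the 3 probes share a transcript.

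For the other genes the intervals spanned 0. SOX17 probe 692 had a log2 difference, CEPT EB minus Y27 EB, of 0.99 ± 0.68 (interval -0.34 to 2.33, adjusted p = 0.339, edgeR), with medians of 5.55 and 1.89 CPM. FOXA1 had 0.50 ± 0.68 (interval -0.84 to 1.85, adjusted p = 0.665), with medians of 3.12 and 2.27 CPM. GATA6 probe 305 had -0.05 ± 0.80 (interval -1.61 to 1.51, adjusted p = 0.961), with medians of 5.86 and 2.28 CPM. Its sign turned to 0.61 (adjusted p = 0.608) without the shallow Y27 EB replicate 15. Intervals this wide do not exclude a 2-fold difference either way for GATA6. SOX17 probes 691 and 693 and GATA6 probes 306 and 307 failed the filter on low counts. In a single fit of all 48 libraries, which pools the spread with the control groups, 3 probes were called higher in CEPT EB: HHEX 1119 (adjusted p = 0.00817), HHEX 1120 (0.0225) and SOX17 691 (log2 fold change 2.10, 0.0075).

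**Figure D4:**
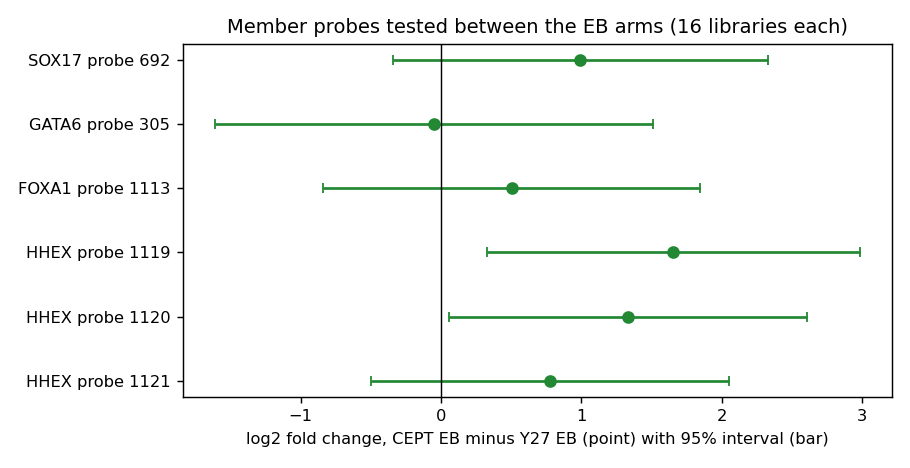
Difference between EB arms for the 6 probes that could be tested, as log2 fold change of CEPT EB minus Y27 EB on the x axis, where points are estimates and bars 95% intervals (16 libraries per arm), and probes on the y axis. Only the intervals of HHEX probes 1119 and 1120 leave out 0, and neither probe passed after adjustment over 867 probes.

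Whether EB libraries high in 1 of the 4 genes were high in the others was asked within each arm, on log2 CPM with a prior count of 2. In CEPT EB all 6 pairs had a positive Pearson r, from 0.389 to 0.724. SOX17 with HHEX reached r = 0.724 (permutation p = 0.00231, adjusted over the 12 pairs and arms 0.0139) with a Spearman coefficient of 0.532 (permutation p = 0.0366, adjusted 0.154). GATA6 with HHEX reached r = 0.679 (permutation p = 0.00116, adjusted 0.0139) with a Spearman coefficient of 0.674 (permutation p = 0.00551, adjusted 0.0661). Without CEPT EB replicate 13, the library without reads of the 4 genes, a choice made after seeing the data, r for SOX17 with HHEX fell to 0.464 (permutation p = 0.0821, adjusted 0.247). For GATA6 with HHEX it was 0.637 (permutation p = 0.0113, adjusted 0.0796), close to the value with that library but no longer past the threshold after adjustment. With the 2 libraries farthest from the median of the first gene left out, r was 0.484 (adjusted permutation p = 0.216) and 0.667 (adjusted permutation p = 0.123).

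In Y27 EB the 6 coefficients ran from 0.131 to 0.609 and no pair passed after adjustment. The highest was FOXA1 with HHEX, with r = 0.609 (permutation p = 0.0133, adjusted 0.053) and a Spearman coefficient of 0.509 (permutation p = 0.0477, adjusted 0.154), and r was 0.229 without the 2 libraries farthest from the FOXA1 median. SOX17 with HHEX stood at 0.131 (adjusted permutation p = 0.628) and turned to -0.332 without the 2 farthest libraries. The difference between the arms was not tested. At these read numbers counting noise and shared depth enter every coefficient.

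**Figure D5:**
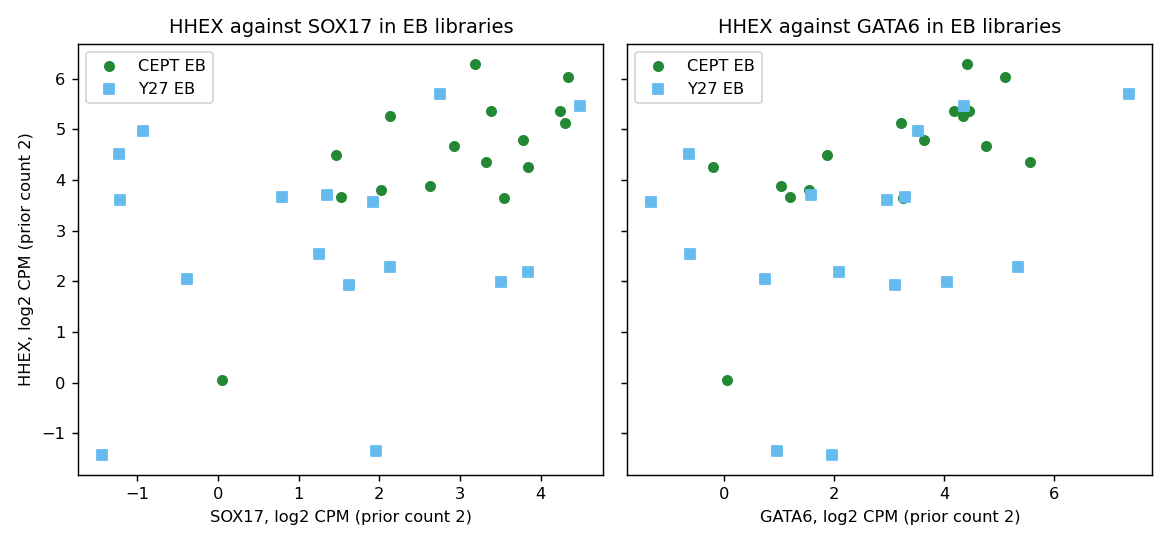
HHEX (y axes) against SOX17 (left x axis) and GATA6 (right x axis) in the 32 EB libraries, all as log2 CPM with a prior count of 2, with circles for CEPT EB and squares for Y27 EB. The lone CEPT EB circle at the lower left of both panels is replicate 13, and r in CEPT EB drops from 0.724 to 0.464 (SOX17) and from 0.679 to 0.637 (GATA6) without it.

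Other endoderm genes were looked at from a list of 22, of which 10 were on the panel. In endoderm against hESC, 8 of the 10 could be tested and 6 rose with at least 1 probe, none fell, beside 38.4% of all probes called higher, and a gene with several probes has more than 1 chance of a call. The median log2 fold change over their probes was 3.49 (0 over all probes). Among them, FOXA2, a forkhead partner of FOXA1, was at 325 ± 67.7 CPM (SD, n = 4) in endoderm and 2.86 ± 1.48 in hESC (log2 fold change 6.67, adjusted p = 1.23e-12, edgeR). LHX1, a LIM homeodomain factor of anterior endoderm and axial mesoderm, was at 407 CPM against 1.61. FZD5, IFITM1, NPPB and CDH2 completed the 6. As the list was chosen with these data known, the rise of its genes is no independent support. In ectoderm against hESC, FZD5, NPPB and CDH2 were higher as well and FOXA2, IFITM1 and LHX1 lower (43.2% of all probes called higher, 38.5% lower). In mesoderm against hESC, CDX2, LHX1, NPPB and CDH2 were higher and FZD5 lower (34.0% and 43.5%), while IFITM1 had probes called both ways. CDX2 averaged 903 CPM in mesoderm, 0 in hESC and 0.325 in endoderm. Between the EB arms, 6 of the 10 could be tested, and FZD5, IFITM1, LHX1 and NPPB were called higher in CEPT EB, with 1 probe of CDH2 lower. Over all probes 23.6% were called, 44.9% of these higher in CEPT EB. The log2 differences were 0.87 for FZD5 (adjusted p = 0.00193), 1.20 for IFITM1 probe 386 (0.0187), 1.34 for LHX1 (0.0445) and 2.26 for NPPB (0.00724), by edgeR. IFITM1 probe 384 had 1.09 (0.0399), and its probe 385 was not called (0.90, 0.0787). FZD5 and IFITM1 (probe 386) were already high in undifferentiated hESC, with means of 466 and 24632 CPM. Each EB arm was called lower than hESC for both genes. FZD5 averaged 51.7 (CEPT EB) and 28.1 CPM (Y27 EB), and IFITM1 probe 386 averaged 3555 and 1527. LHX1 and NPPB were low in hESC, at 1.61 and 0 CPM. Whether the differences between arms reflect endoderm was not tested. IFITM1 is an interferon-induced membrane protein and NPPB a natriuretic peptide, so these genes are not restricted to endoderm, and the list was drawn with earlier results of these libraries known. All 4 kept their sign under the other scalings and DESeq2. With library totals alone, FZD5 (log2 difference 0.53, adjusted p = 0.0618, edgeR), LHX1 (1.08, 0.0946) and IFITM1 probe 384 (0.76, 0.0974) were no longer called. FOXA2 failed the filter in the EB arms, with mean CPM of 1.41 (CEPT EB) and 0.756 (Y27 EB).

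Nodal and primitive streak genes, which act upstream of endoderm, had 7 of 16 members on the panel. In endoderm against hESC, EOMES, LEFTY1, LEFTY2, NODAL, T and TDGF1 rose and GDF3 fell (38.4% of all probes were called higher). NODAL, the ligand, was at 236 ± 17.6 CPM (SD, n = 4) in endoderm and 9.70 ± 1.26 in hESC, and EOMES, a T-box factor that activates endoderm genes, at 427 ± 155 against 0.209 ± 0.418. T, a streak and mesoderm marker, was far lower in endoderm than in mesoderm (1158 CPM). Between the EB arms 3 of the 7 genes could be tested, with a median log2 difference of 0.33 over their 6 probes (-0.04 over all probes). Of these probes 0 were called in either direction, beside 23.6% of all probes tested.

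The labels of the control cultures were checked against their markers. Of 8 neural ectoderm genes on the panel, 6 were higher in ectoderm than in hESC and TUBB3 and OLIG2 lower (43.2% of all probes called higher, 38.5% lower). In endoderm against hESC, PAX6, SIX3 and TUBB3 were higher and NES, OLIG2 and SOX1 lower, where 38.4% of all probes were called higher. PAX6 was at 175 CPM in endoderm and 0.282 in hESC, and SIX3 at 105 and 33.6. Besides the 4 genes, which cannot check the label here, the endoderm markers on the panel were FOXA2 and EOMES, both higher in endoderm than in hESC. Of 8 pluripotency genes, 6 were lower there and LIN28A and TDGF1 higher, where 78.2% of all probes were called and 38.4% called higher. The summed CPM of the 8 ran from 16700 to 18600 in endoderm and 19500 to 21100 in hESC. In EB libraries that sum ran from 5130 to 7210, and all 8 genes were lower in CEPT EB than in hESC, where 31.2% of all probes were called lower. Other cell types that use these factors were also read. Of 3 endothelium and blood markers on the panel, CDH5 had a mean CPM of 9.71 for CEPT EB, 8.76 for Y27 EB, 0.282 for hESC and 0.107 for endoderm, and was called higher than hESC in both arms (adjusted p = 0.000751 and 0.000456, edgeR), PECAM1 was under 1 CPM in all 6 groups, and KDR was lower in both arms than in hESC. Their summed CPM ran from 3.80 to 52.3 in CEPT EB and 10.8 to 185 in Y27 EB. Of 5 extraembryonic endoderm markers on the panel, SOX7 had a mean CPM of 14.5 for CEPT EB, 17.6 for Y27 EB and 6.36 for endoderm, and AFP was at most 1.87 CPM in any group mean. LAMB1, SPARC and PDGFRA were called higher in endoderm than in hESC (8 of 9 tested probes, beside 38.4% of all probes), and likewise in ectoderm and mesoderm. Together with SOX7 they were called higher than hESC in CEPT EB (5 of 9 probes, beside 42.2%) and in Y27 EB (6 of 9, beside 41.5%). The summed CPM of the 5 markers ran from 755 to 2010 in CEPT EB, 945 to 2130 in Y27 EB, 2390 to 2960 in endoderm and 794 to 860 in hESC. Of their 9 tested probes, 2 were called lower in CEPT EB than in Y27 EB, where 23.6% of all probes were called. They were 1 each of the matrix proteins LAMB1 and SPARC. SPARC probes 1258 and 1259 were not called (adjusted p = 0.33 and 0.546, edgeR). LAMB1 probe 1200 had a log2 difference of -0.37 (adjusted p = 0.0115, and 0.054 with median-ratio factors), while its probe 1201 had 0.01 (adjusted p = 0.955). The 6 mesoderm markers on the panel summed to 2450 to 2630 CPM in mesoderm, 1160 to 2770 in CEPT EB, 1600 to 5810 in Y27 EB, 162 to 188 in endoderm and 1.56 to 4.56 in hESC. The genes behind these sums differed, so similar sums do not mean similar cells. In endoderm against hESC, 4 of the 6 could be tested (HAND1, ISL1, PDGFRA and T). All 8 of their tested probes were called higher in endoderm, beside 38.4% of all probes. T (probe 718) averaged 1158 CPM in directed mesoderm, against 2.37 (CEPT EB) and 3.00 (Y27 EB). ISL1 (probe 395) went the other way, with 4.97 CPM there against 903 (CEPT EB) and 1128 (Y27 EB). HAND1 (probe 339) was at 180 ± 637 CPM (SD) in Y27 EB, with at most 1194 reads in a library. An SD so far above the mean shows that very few libraries carry it. The shallow replicate 15 was not left out of this mean or of the Y27 EB sums. Of 4 floor plate markers, NKX2-1 was at 0 in both arms and their summed CPM was at most 8.03 in any EB library. In endoderm, FOXA2, NKX2-1 and NKX2-2 of that list were called higher than in hESC, beside 38.4% of all probes. The sum over the list was 358 to 502 CPM in endoderm, against 0.651 to 4.18 in hESC. Most of that sum is FOXA2, which endoderm also uses, and NKX2-1 was at 40.3 CPM. The part of these cell types in the levels of the 4 genes, in EBs or in endoderm, was not tested.

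The panel genes with the most similar pattern over the 6 group means were found by the Pearson correlation of mean log2 CPM between the most abundant probe of each gene, over 385 genes. They are descriptions over 6 points, which endoderm dominates. For SOX17 they were ROR2, a Wnt receptor (r = 0.965), NPPB (0.953) and EOMES (0.952). For GATA6 they were LHX1 (0.947), FZD7, a Wnt receptor (0.938), and SERPINE2, a protease inhibitor (0.938). FOXA1 went with SDC4, a cell surface proteoglycan (0.973), MBP, a myelin protein (0.968), and ZIC2, a zinc-finger factor of neural cells (0.953). HHEX went with NODAL (0.976), CLDN1, a tight junction protein (0.971), and PODXL, a surface sialomucin of stem cells (0.969). Some of the genes closest to FOXA1 and HHEX also had clear hESC levels, for example PODXL at 978 CPM in hESC and 2336 in endoderm and MBP at 127 and 200. Among the 4 genes themselves, r was highest for SOX17 with GATA6 (0.836) and FOXA1 with HHEX (0.814) and lowest for GATA6 with FOXA1 (0.354).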

How the data were processed

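The authors deposited raw read counts per probe and library, made with a custom aligner against their probes, per the labels. The probe sequences, mismatch rules and strand handling are not given in the sources used here, and no molecular identifiers are mentioned. The submitters' processing notes name hg38 and DESeq2, with no version. The sample tables were used; 16 columns of the merged table matched no label and were left out.

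Counts were tested with edgeR 4.0.16 in R 4.3.3 (filterByExpr by group, TMM, robust quasi-likelihood, two-sided, Benjamini-Hochberg over all probes, threshold 0.05). Comparisons among hESC and directed lineages came from 1 fit of those 16 libraries, and each other comparison used its own 2 groups. CPM used TMM factors over 48 libraries. Where every library of a group had at most 3 reads, fold changes are lower bounds against 3 reads per library. Correlations used 100000 resamples in two-sided permutation tests (Python 3.11.15). Alternatives included DESeq2 1.42.0, other scalings and filters, a replicate block and each library left out.

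All probes of the 4 genes are named, plus the 3 genes closest in pattern to each, and genes of the lists. The members, lists and motifs were chosen with earlier results of these data known.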

Additional observations from a re-analysis of the deposited data

Results flagged for a closer look

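Among 28 sets of 4 control libraries checked (a probe in a group with more than 3 reads in some library), 2 held a library far from the other 3, or 7.14%, where chance gives about 5%. FOXA1 probe 1113 was at 59.7 CPM in hESC replicate 4, from 106 reads, and at 76.3 to 78.8 CPM in the other 3 hESC libraries. HHEX probe 1119 was at 763 CPM in endoderm replicate 3 and at 863 to 877 CPM in the other 3. Neither library, when left out, changed the call of its probe in endoderm against hESC.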

How the results depend on the processing

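Under the other settings, 794 recomputed results kept their direction and call, 8 lost and 2 gained a call, 4 reversed and 15 other values moved; with 1 library left out these numbers were 1559, 13, 4, 7 and 6. Same-numbered libraries were not treated as pairs, since no set of groups had every correlation of deviations over 0.1: the 24 control correlations ran from -0.178 to 0.635, and the 9 over 0.1 were all among replicates 2, 3 and 4 of ectoderm, mesoderm and endoderm, so those libraries may share something by number. Each ectoderm library correlated best with its own number in endoderm. The 16 EB correlations ran from -0.273 to 0.214, with 3 over 0.1. With a replicate block, which uses fewer libraries where groups are unequal, 4 probes were tested and 4 called in CEPT EB against hESC, and likewise 4 in Y27 EB against hESC; the block changed no other count of member calls, and GATA6 probe 305 turned to 0.67 between the EB arms. In the single fit of all 48 libraries, 3 probes were called in ectoderm against hESC and 3 in CEPT EB against Y27 EB, and GATA6 probe 305 turned to 0.30 between the arms. Without the shallow library it was 0.61. The cause was not tested. With the 2 farthest libraries left out, 0 gene pairs passed, and SOX17 with HHEX in Y27 EB turned to -0.332; 0 pairs passed without CEPT EB replicate 13 either. With 1 library left out, member calls ranged from 0 to 1 in CEPT EB against Y27 EB, from 4 to 7 in Y27 EB against hESC and from 6 to 8 in ectoderm against hESC (SOX17 probes 692 and 693 gained without ectoderm replicate 1 or 2), and GATA6 probe 305 from -0.31 to 0.61 between the arms. Requiring 10 reads in each library tested left 0 member probes in all 10 comparisons and gives no value. Over all probes, CEPT EB against Y27 EB had 205 calls with 44.9% higher, 339 with 14.2% higher by library totals alone (median log2 shift -0.313), 182 with 58.8% higher by median-ratio factors and 200 with 60.5% higher by DESeq2. Library totals moved that median most in endoderm against Y27 EB (by -0.92) and changed no member call. The 10-read filter gave 398 in place of 706 calls in endoderm against hESC, since it tests 510 probes. At a few reads per library, low levels of SOX17 and GATA6 in hESC, ectoderm and EBs are limited by depth.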
